A study of Mus musculus with 30 samples.

Results

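The Arp2/3 complex is the machine that starts new actin filaments as branches on existing ones. Its subunits were followed here in RNA-seq of growing C2C12 cells, a line of mouse myoblasts, separated by cell cycle phase. The set holds the 9 genes Actr2, Actr3, Arpc1a, Arpc1b, Arpc2, Arpc3, Arpc4, Arpc5 and Arpc5l, found by symbol among 46078 genes of the deposited table, of which all 9 reached the 10 CPM (fragments scaled by library size) used as the measuring limit. The set was selected on the measured Arpc5l levels in S and G2/M, where Arpc5l is much lower in G2/M, so that contrast is given as a description and supports nothing.

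The groups compared were 3 sorted fractions of the same line, labelled G1, S and G2/M. All cells were in the growing state in medium with 20% serum, were incubated for 15 minutes with Hoechst, which stains DNA, and were then separated on a cell sorter. Each fraction has 2 columns of fragment counts, and gene-assigned fragments totalled 32395232 (G1), 35822319 (S) and 35907974 (G2/M). The labels call these columns replicates but do not say that they came from separate cultures. The titles of the S columns alone also carry a lot mark, whose meaning is not stated, so a lot and the S phase cannot be told apart in comparisons with S. Their scatter was that of counting alone in G1, 1.03 times it in S and 1.15 times it in G2/M. The excess was beyond sampling noise in G2/M and, by less, in S. Because it was this small, the columns of a fraction were added up and each fraction was counted as 1 sample with no replicate. No test between fractions was therefore possible, and every interval below is an exact 95% interval that covers counting error only.

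Arp2 and Arp3, the products of Actr2 and Actr3, resemble actin and together act as the first units of the new filament. Arpc2 and Arpc4 form the core that lies along the mother filament, Arpc1 takes part in contacts with activating proteins, Arpc3 joins Arp3 to the core and Arpc5 ties Arp2 to it. The complex is active only with a nucleation promoting factor such as N-WASP or WAVE, and it drives sheet-like protrusions of migrating cells and, in myoblasts, the actin remodelling that goes with cell fusion. Mammals have paralogous genes for Arpc1, Arpc5 and Arp3; in human cells, complexes with ARPC1B and ARPC5L were described as stronger actin assemblers than those with ARPC1A and ARPC5.

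As a check of the labels, 6 G2/M markers summed to 322.9 (G1), 919.4 (S) and 1703.3 CPM (G2/M). A set of 5 G1/S genes summed to 963.4, 413.0 and 366.9 CPM in the same order. Of 7 myoblast markers 6 reached 10 CPM, while Myod1 stood at 6.64, 6.08 and 5.73 CPM. Of 7 leukocyte markers 6 had no fragment in any fraction, and Cd68 had 169, 47 and 0 fragments.

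In 6 of the 9 subunits the highest and lowest fractions lay within 1.07-fold to 1.38-fold of each other, and the other 3 spanned more. Arpc5l was low in G2/M, Arpc3 was low in S, and Arpc1b was high in G1. Together the 9 genes held 3033.0 (G1), 3117.6 (S) and 2889.1 CPM (G2/M). In sorted bulk cells, fewer cells of a kind and less RNA per cell cannot be told apart.

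**Figure D1:**
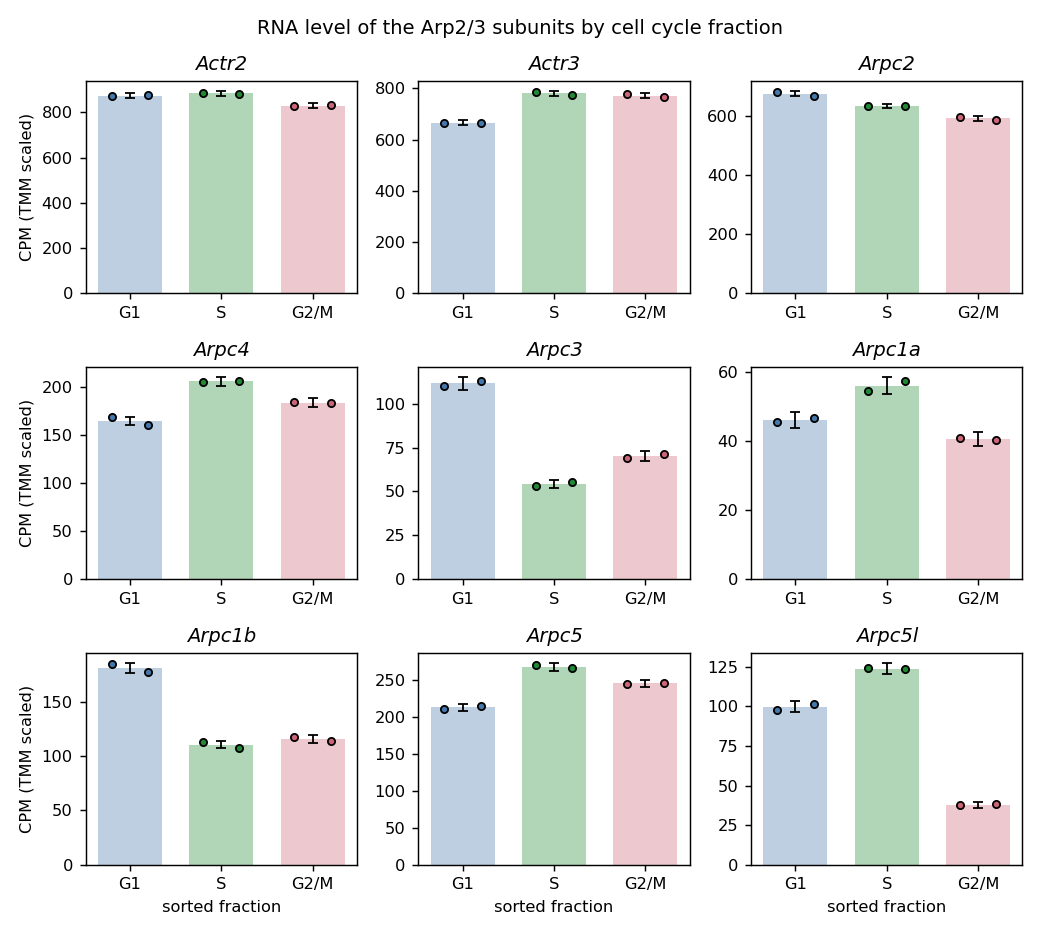
RNA level in CPM (vertical axes, from 0) of each subunit in the G1, S and G2/M fractions; bars give the summed library, dots its 2 columns and error bars the exact 95% counting interval. Arpc5l stands at 37.9 CPM in G2/M against 123.9 CPM in S, while Actr2 stays between 830.5 and 884.5 CPM.

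Actr2, on chromosome 11 (chr11:20062304-20112913, GRCm38, minus strand), encodes Arp2 and was the most abundant member by CPM. The columns held 870.7 and 878.5 CPM in G1, 886.1 and 882.9 CPM in S, and 828.4 and 832.5 CPM in G2/M. The highest fraction exceeded the lowest by 1.07-fold, the smallest span of the 9 genes. Actr2 was 1.01-fold higher in S than in G1, with an interval of 0.995 to 1.03 that includes 1.

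Actr3, which encodes Arp3 (chr1:125392905-125435727, minus strand), had 665.9 and 666.4 CPM in G1, 785.5 and 774.8 CPM in S, and 777.6 and 766.2 CPM in G2/M. Both later fractions lay above G1, by 1.17-fold in S (interval 1.15 to 1.19) and by 1.16-fold in G2/M (1.14 to 1.18). G2/M and S differed by less than counting error, with a G2/M over S log2 ratio of -0.02 (interval -0.04 to 0.01). A pseudogene of Actr3, Actr3-ps, is annotated on the X chromosome, and the header of the table sets no option for reads that match several places, so the Actr3 level is uncertain to that extent.

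The core subunits differed little. Arpc2 (chr1:74236084-74268209) had 682.8 and 671.0 CPM in G1, 636.3 and 634.3 CPM in S, and 598.6 and 589.6 CPM in G2/M. It was lowest in G2/M, 1.14-fold under G1 (interval 1.12 to 1.16). Arpc4 (chr6:113378113-113390447) had 168.8 and 159.9 CPM in G1, 205.3 and 205.9 CPM in S, and 183.7 and 183.3 CPM in G2/M. It was highest in S, 1.25-fold over G1 (1.21 to 1.30), and 1.12-fold lower in G2/M than in S (1.08 to 1.16).

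Arpc3, the subunit that joins Arp3 to the core (chr5:122391878-122414184), had the widest difference between S and G1. Its columns held 110.4 and 113.0 CPM in G1, 53.0 and 55.6 CPM in S, and 69.1 and 71.4 CPM in G2/M. G1 was high and the later fractions low. Columns of different fractions did not overlap, but those of a fraction count as 1 sample. Arpc3 was 2.06-fold lower in S than in G1 (interval 1.95 to 2.18), at 54.3 CPM in S against 111.7 CPM in G1. In G2/M it was 1.29-fold above S (1.22 to 1.37) and still 1.59-fold below G1 (1.51 to 1.67).

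Arpc3 was the single member of 9 at least 2-fold lower in S than in G1, and none was 2-fold higher. Among all 8773 genes measured in these fractions, 8.59% were at least 2-fold lower in S and 8.63% at least 2-fold higher. Among genes with a mean of 50 to 100 CPM, the level class of Arpc3, 3.45% were at least 2-fold lower. At 1.5-fold, Arpc3 and Arpc1b were lower, 2 of 9, beside 18.3% of all measured genes lower and 18.5% higher.

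The Arpc1 paralogues went opposite ways between G1 and S. Arpc1b (chr5:145114215-145130705) had 184.9 and 177.5 CPM in G1, 113.2 and 107.7 CPM in S, and 117.3 and 113.9 CPM in G2/M. It was 1.64-fold lower in S than in G1 (interval 1.58 to 1.71) and 1.57-fold lower in G2/M than in G1 (1.51 to 1.63). Arpc1a (chr5:145083830-145108761), its neighbour on the same strand, had 45.6 and 46.7 CPM in G1, 54.6 and 57.5 CPM in S, and 40.8 and 40.4 CPM in G2/M. It was 1.22-fold higher in S than in G1 (1.14 to 1.30) and 1.38-fold lower in G2/M than in S (1.29 to 1.48).

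Of the exon bases of Arpc1b, 18.2% also belong to Pdap1 on the opposite strand, and the header of the table names no option for strand. Pdap1 had 6794 (G1), 5733 (S) and 7435 fragments (G2/M), so the part of the shared stretch in the Arpc1b counts is uncertain. Arpc1a shares 1.95% of its exon bases with Kpna7, which had no fragment in any fraction. No other member shares exon bases with another gene of the annotation. Arpc1b is known for its high level in blood cells; of the 7 leukocyte markers 6, Ptprc, Coro1a and Was among them, were at 0, and Cd68, with 169, 47 and 0 fragments, was highest in G1 as Arpc1b was. The list summed to 5.27 (G1), 1.31 (S) and 0.0 CPM (G2/M), against 181.2, 110.4 and 115.6 CPM of Arpc1b, and its part in the Arpc1b level was not tested.

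Arpc5 and Arpc5l, paralogues for the subunit that ties Arp2 to the core, were both higher in S than in G1 and parted in G2/M. Arpc5 (chr1:152766542-152775597) had 209.9 and 214.9 CPM in G1, 269.0 and 265.9 CPM in S, and 243.7 and 246.0 CPM in G2/M. It was 1.26-fold higher in S than in G1 (interval 1.22 to 1.30) and 1.09-fold lower in G2/M than in S (1.06 to 1.12). Arpc5l (chr2:39008076-39015877, Ensembl ENSMUSG00000026755) had 97.8 and 101.4 CPM in G1, 124.5 and 123.3 CPM in S, and 37.5 and 38.2 CPM in G2/M. Both G2/M columns lay far below all 4 others, though the columns of a fraction count as 1 sample here.

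In fragments, Arpc5l had 1373 in G2/M against 4440 in S and 3194 in G1. It was 3.27-fold lower in G2/M than in S (interval 3.08 to 3.48), the difference by which the set was chosen, and 2.63-fold lower in G2/M than in G1 (2.47 to 2.81). Between S and G1 it was 1.24-fold higher (1.19 to 1.30), close to Arpc5, Arpc4 and Arpc1a. That ratio shares the S library with the comparison by which the set was chosen. As a description, Arpc5l was the single member at least 2-fold lower in G2/M than in S, where 6.60% of 8752 measured genes were, with 7.12% at least 2-fold higher. In the class of 50 to 100 CPM that share was 2.59%.

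**Figure D2:**
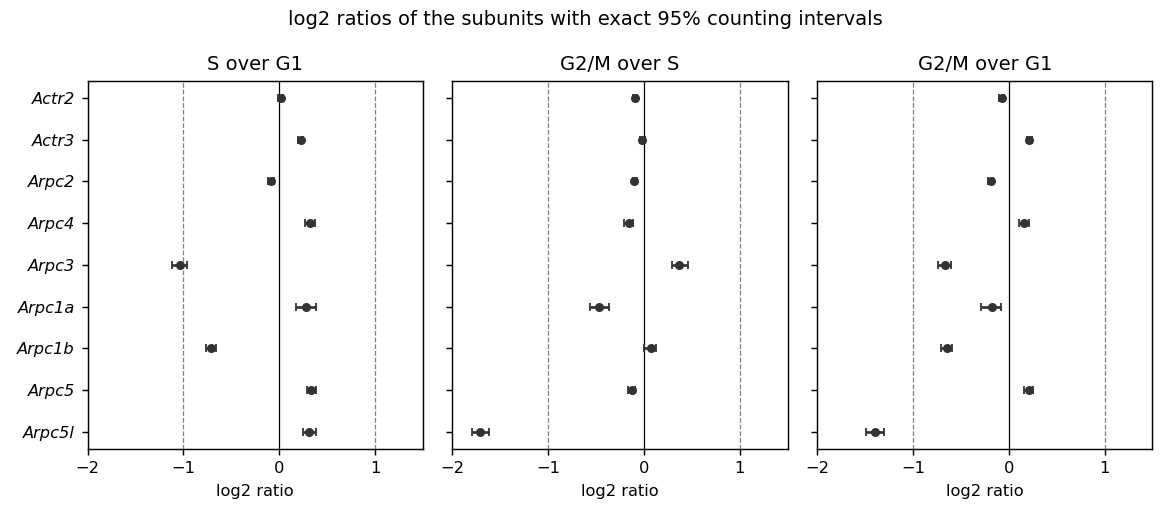
log2 ratios (horizontal axes) of the 9 subunits in each of the 3 comparisons, with exact 95% counting intervals; dashed lines mark 2-fold. Arpc5l lies at -1.71 in G2/M over S and at -1.40 in G2/M over G1, and Arpc3 at -1.04 in S over G1.

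Between G2/M and G1, Arpc5l was again the single member at least 2-fold lower, beside 9.81% of 8850 measured genes, or 3.75% in its level class, and no member was 2-fold higher, beside 10%. This comparison shares the G2/M library with the one by which the set was chosen. At 1.5-fold, 3 members were lower, namely Arpc1b, Arpc3 and Arpc5l, and none was higher, beside 19.6% of all measured genes lower and 20.2% higher. Between G2/M and S, 1 of 9 was lower at 1.5-fold and none higher, beside 15.4% and 16.1%.

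Over the whole set the median log2 ratio was 0.23 in S over G1, with 6 members higher and 3 lower. It was -0.10 in G2/M over S, with 2 higher and 7 lower, and -0.18 in G2/M over G1, with 3 higher and 6 lower. The medians of all measured genes were -0.01, 0.01 and 0.00 in the same order, and 49.6%, 50.5% and 49.8% of these genes were higher. The G2/M over S count and median include Arpc5l, whose difference there was used to choose the set. With 9 members and 1 library per fraction these medians describe the libraries only.

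**Figure D3:**
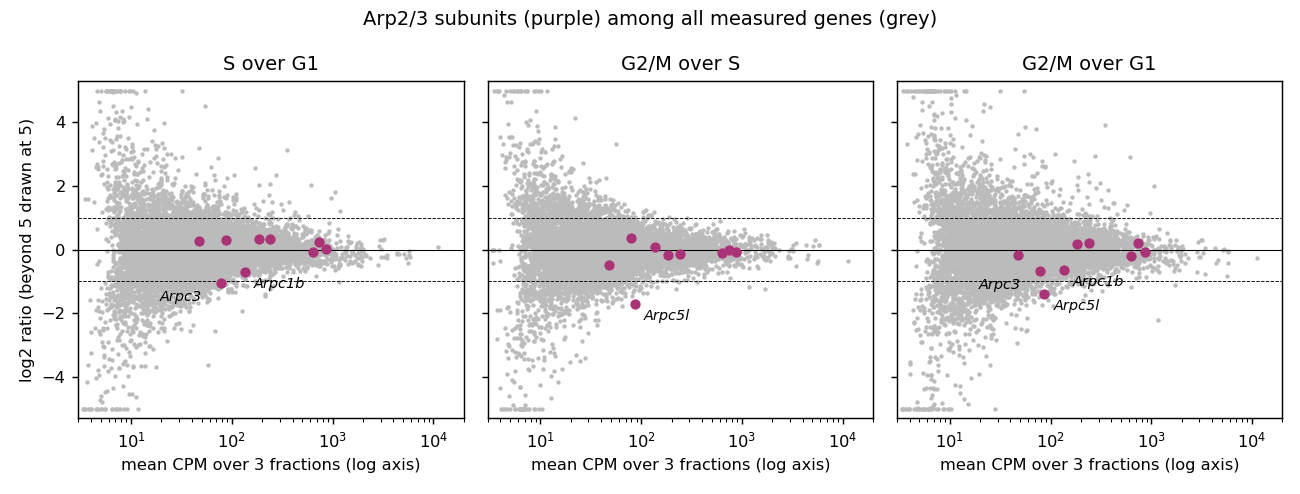
log2 ratio (vertical axes) against mean CPM over the 3 fractions (horizontal, log axis) for all measured genes in grey and the 9 subunits in purple, with the members past 1.5-fold named. Spread widens toward low levels: in S over G1, 34.8% of genes with a mean of 10 to 20 CPM and 1.99% of those at 500 CPM or more were at least 2-fold apart.

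The 3 members with the widest spans lie in the lower part of the level range of the set, with means of 87.1 CPM for Arpc5l, 78.8 CPM for Arpc3 and 135.7 CPM for Arpc1b. Actr2, Actr3 and Arpc2, all with a mean over 500 CPM, spanned 1.07-fold to 1.17-fold between their highest and lowest fractions. Over all genes, 15.7% of those at 50 to 100 CPM and 2.98% of those at 500 CPM or more spanned at least 2-fold. Arpc1a, the member with the lowest mean at 47.6 CPM, spanned 1.38-fold.

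Exon length also moved with the ratios. In S over G1 the median was -0.21 over genes of up to 2693 exon bases, -0.08 and 0.04 in the next groups of equal size by length, and 0.22 over genes of more than 6509 exon bases. Arpc1a, Arpc2, Arpc4 and Arpc5 fall in the shortest group, where Arpc1a, Arpc4 and Arpc5 were higher in S. Arpc3 falls in the next one, and Actr2, Actr3, Arpc1b and Arpc5l in the one after it. From the shortest to the longest group the medians ran from 0.10 to -0.06 in G2/M over S and from -0.13 to 0.13 in G2/M over G1. The part of length in the members' ratios was not tested.

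To set the subunits beside each other, levels were divided by exon length to give CPM per kilobase of exon (RPKM). Arpc2 was the highest subunit in every fraction, at 332.9 (G1), 312.5 (S) and 292.2 RPKM (G2/M). Next came Actr2 at 168.1, 170.0 and 159.6 RPKM and Actr3 at 143.9, 168.5 and 166.7 RPKM. Their counting intervals overlapped in S, whereas Actr2 was the higher in G1 and Actr3 in G2/M. Arpc5 followed at 93.3, 117.5 and 107.6 RPKM, and Arpc4 at 72.4, 90.5 and 80.8 RPKM.

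The lower part of the order differed between fractions. In G1 it ran Arpc3 at 40.5 RPKM, Arpc1b at 35.4, Arpc5l at 22.4 and Arpc1a at 18.0. In S it ran Arpc5l at 27.9, Arpc1a at 21.8, Arpc1b at 21.6 and Arpc3 at 19.7, with Arpc1a and Arpc1b not distinguishable by counting. In G2/M it ran Arpc3 at 25.4, Arpc1b at 22.6, Arpc1a at 15.8 and Arpc5l at 8.53. All other neighbours in these orders had counting intervals that did not overlap. The place of Arpc1b is less certain than these intervals show, because 18.2% of its exon bases are shared with Pdap1. The exon length used is that of all annotated exons of a gene joined, so a gene with long exons that C2C12 cells do not use is set too low.

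With paralogues added up, the 7 positions of the complex were unequal in RNA. Arpc3 was the lowest position in each fraction, and Arpc2 exceeded it by 8.23-fold (G1), 15.9-fold (S) and 11.5-fold (G2/M). The Arpc1 position held 53.4, 43.4 and 38.4 RPKM, a sum in which the Arpc1b part is uncertain because of the bases shared with Pdap1. The Arpc5 position held 115.8, 145.4 and 116.1 RPKM, so its sum was as high in G2/M as in G1 although Arpc5l was not.

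Within the Arpc5 position, the Arpc5l share of the RPKM was 19.4% (18.7 to 20.1) for G1, 19.2% (18.6 to 19.8) for S and 7.35% (6.96 to 7.74) for G2/M. Its columns gave 19.3% and 19.5% in G1, 19.2% in both columns of S, and 7.31% and 7.38% in G2/M. The intervals for S and G1 overlapped and that for G2/M lay below both, which uses the same Arpc5l values as the choice of the set. Within the Arpc1 position, Arpc1a made up 33.7% in G1 (32.4 to 34.9), 50.3% in S (48.9 to 51.6) and 41.2% in G2/M (39.7 to 42.6). The 3 intervals do not overlap, but they do not cover the uncertainty from the Arpc1b exon bases shared with Pdap1. Both shares depend on the exon lengths used: without division by length the Arpc5l share was 31.9%, 31.7% and 13.4%, and the Arpc1a share 20.3%, 33.7% and 26.0%, in the same order of fractions.

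**Figure D4:**
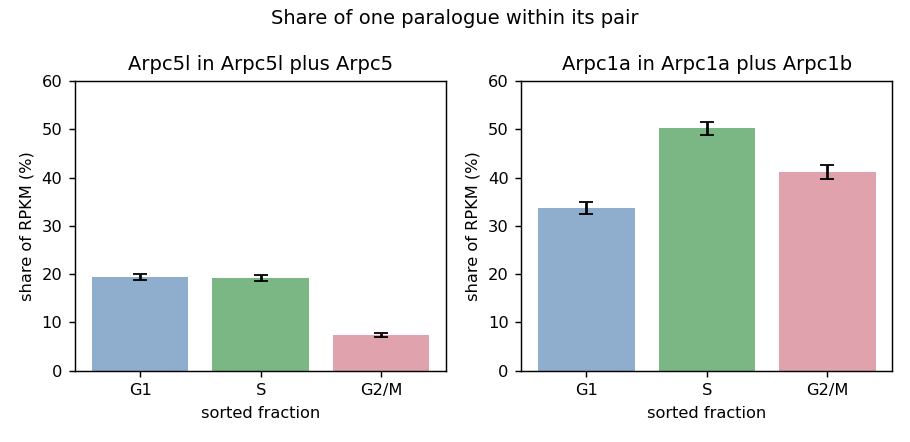
Share (%, vertical axes from 0) of Arpc5l in the RPKM of Arpc5l plus Arpc5, and of Arpc1a in that of Arpc1a plus Arpc1b, in the G1, S and G2/M fractions; error bars are exact 95% counting intervals. The Arpc5l share is 7.35% in G2/M against 19.2% in S, and the Arpc1a share is highest in S at 50.3%.

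Actr3b, the paralogue of Actr3 and no member of the set, had 0 (G1), 27 (S) and 146 fragments (G2/M), under 10 CPM throughout; it was singled out after its values were seen.

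The genes most like Arpc5l over the 3 libraries, by distance between log2 CPM values centred on each gene's mean among 8334 genes, were Egr1, Zfp384, Tmc6, Zbtb21 and Srsf4, with distances of 0.068 to 0.089. Egr1, a serum-response transcription factor, stood at 71.9 (G1), 95 (S) and 27.4 CPM (G2/M). Srsf4, a splicing factor, stood at 45.2, 57.5 and 18.7 CPM. Zfp384 and Zbtb21, zinc finger proteins, stood at 54.7, 63.3 and 20.4 CPM and at 29.5, 39.2 and 11.2 CPM. A likeness over 3 libraries rests on few points. The ranking also uses the S and G2/M levels of Arpc5l by which the set was chosen. A like fall from S to G2/M in these genes is therefore by construction.

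The starts of the members' genes were read from RefSeq (GRCm38.p6), where a window was found for 8 of the 9 members. The member without a window is Arpc5l, so nothing below on these windows covers it. The letters CCGGAAGT, one exact form of the site for ETS transcription factors, were searched on both strands in the 250 bases before the start. Shorter or varied forms were not searched. The Arpc2 window holds GCGGAAGT, for example, which is not counted as a match. They occurred in 4 of the 8 windows, those of Actr3, Arpc1a, Arpc3 and Arpc4, and in 2.88% of 32851 windows of all genes. The windows of all genes were not matched to the members by RNA level or by G and C content. The share over all windows is therefore not a like background for the members, here and for the other letters below. In each of the 4 the match lay within the last 26 bases before the start. The last 100 bases before the start, written 5′ to 3′ on the gene's strand with the match in capitals, are shown for Actr3, Arpc3 and Arpc4, whose RefSeq starts are those given above. Their positions are chr1:125435728-125435827 (minus strand) for Actr3, chr5:122391778-122391877 (plus) for Arpc3 and chr6:113378013-113378112 (plus) for Arpc4.
Actr3: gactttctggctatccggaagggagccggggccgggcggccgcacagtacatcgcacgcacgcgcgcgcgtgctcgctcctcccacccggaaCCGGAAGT
Arpc3: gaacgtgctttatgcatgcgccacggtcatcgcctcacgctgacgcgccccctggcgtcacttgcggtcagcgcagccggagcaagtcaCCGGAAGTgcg
Arpc4: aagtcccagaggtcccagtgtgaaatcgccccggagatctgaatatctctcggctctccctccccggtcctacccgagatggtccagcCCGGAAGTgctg

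In Arpc1a the match is on the opposite strand, and the RefSeq start lies 39 bases inside the gene as the deposited table gives it, so the match falls after that other start. Arpc1b and Arpc2 also begin later in RefSeq, by 41 and 433 bases, and Actr2 earlier by 38 bases. Of the 4 genes with the match, Actr3, Arpc1a and Arpc4 were highest in S and Arpc3 in G1. Of the searched members without it, Actr2 and Arpc5 were also highest in S, and Arpc1b and Arpc2 in G1. The lead of S over G2/M in Actr3 and over G1 in Actr2 was within counting error. Other letters were searched in the same windows. CCAAT was found in 2 of 8 (33.8% of all windows), TTTGAA, the cell cycle homology element, in 2 of 8 (16.0%), and a CArG box, the site of serum response factor, in Arpc4 alone (1.47%). The E2F letters TTTCGCGC, TTTGGCGC and TTTCCCGC were in none of the 8 and in 1.53% of all windows. The letters to search were picked after the windows had been read, and a match is no evidence of binding.

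Genes that work with the complex were read from 6 lists. Their counts cover members with a mean of at least 10 CPM over the 3 fractions. This limit was chosen after the values were seen, since one set within each comparison admits genes through the fraction where they are high. A limit on the mean can still do so. Actr5 passed it with 0.998 CPM in G1 and 17.7 CPM in G2/M, and Carmil1 with 4.21 CPM in G1 and 31.3 CPM in G2/M. Among all 8335 genes over this limit, 50.0% were higher in S over G1, 50.1% in G2/M over S and 49.9% in G2/M over G1. At least 2-fold higher were 7.52%, 5.47% and 8.34% of them in these comparisons, and at least 2-fold lower 6.75%, 5.52% and 8.09%. None of the differences has a replicate.

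Of 26 activators of the complex, genes of the WASP, WAVE and WASH families and their partners, 19 were over the limit. In S over G1, 10 were higher (median 0.24), 1 at least 2-fold, and 2 were at least 2-fold lower. In G2/M over S, 13 were higher (median 0.15) and 1 was at least 2-fold lower. Against G1, 12 were higher in G2/M (median 0.16), 1 at least 2-fold. The most abundant per length were Brk1, the small WAVE complex subunit, at 79.3 (G1), 64.3 (S) and 75.4 RPKM (G2/M), and the WASH subunit Washc5 at 45.9, 41.7 and 48.6 RPKM.

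Wipf2, a WASP-interacting protein, was 2.57-fold lower in S than in G1, at 26.8 CPM in S against 68.9 CPM in G1. Washc1, the WASH protein that activates the complex on endosomes, was 2.49-fold lower in S (14.8 CPM in S against 36.7 CPM in G1). Both average between 20 and 50 CPM, where 8.04% of all genes were at least 2-fold lower in S over G1. Washc3 was 4.01-fold higher (24.9 CPM in S against 6.21 CPM in G1) and 2.17-fold lower in G2/M than in S. Baiap2, a partner of WAVE, had 24.6 CPM in G2/M against 9.83 CPM in G1, and Whamm, an activator at Golgi membranes that is under the limit, had 10.4 CPM in G2/M against 4.02 CPM in G1. Washc3 and Baiap2 average 10 to 20 CPM, where many genes were at least 2-fold apart in either direction. The shares there were 34.8% in S over G1, 31.9% in G2/M over S and 38.0% in G2/M over G1.

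Of 14 genes that stabilise or undo branches, 7 were over the limit, and none of these was past 2-fold in any comparison. All 7 were higher in S over G1 (median 0.35), 2 of them by less than 1.1-fold. In G2/M over S 2 were higher (median -0.06), and in G2/M over G1 5 were (median 0.26). Gmfb, which takes branches apart, stood at 85.0 (G1), 102.9 (S) and 101.8 RPKM (G2/M). Cttn (cortactin), which stabilises branches, stood at 59.1, 75.4 and 72.5 RPKM.

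Under the limit, Coro7 had 88 (G1), 287 (S) and 584 fragments (G2/M), and Nckipsd had 314, 49 and 418. The coronin Coro2a had 0, 50 and 399 fragments. Its ratio, 117.6-fold higher in G2/M than in G1, is set by the floor of 3 fragments that replaces the 0 in G1. These 3 reach 10 CPM only in G2/M, and Nckipsd was 7.16-fold lower in S than in G1.

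Filament capping and turnover genes, 17 of 23 over the limit, had medians of 0.00 in S over G1, -0.11 in G2/M over S and -0.26 in G2/M over G1, with 9, 6 and 6 higher. Cfl1 (cofilin), which severs old filaments, stood at 2110.6 (G1), 1486.2 (S) and 1356.6 RPKM (G2/M), 1.56-fold lower in G2/M than in G1. Dstn, a cofilin relative, stood at 127.1, 103.3 and 159.6 RPKM. Carmil1, which removes capping protein, was the one past 2-fold among the 17, with 135, 831 and 1137 fragments. It averages 10 to 20 CPM, where 34.8% of all genes were at least 2-fold apart in S over G1 and 38.0% in G2/M over G1. Under the limit and chosen after its values were seen, the monomer-binding Twf2 had 293, 201 and 14 fragments.

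Formins and other nucleators, which start unbranched filaments, had 11 of 19 over the limit. Of these, 8 were higher in S over G1 (median 0.51), 2 at least 2-fold. In G2/M over S, 4 were higher (median -0.35) and none was past 2-fold. Against G1, 8 were higher in G2/M (median 0.08), 1 at least 2-fold, and 1 was at least 2-fold lower. Diaph3 stood at 34.2 (G1), 52.4 (S) and 58.5 RPKM (G2/M), and Inf2 at 34.6, 37.2 and 36.0 RPKM.

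Fmn1 stood at 9.95 (G1), 42.6 (S) and 27.2 CPM (G2/M) and Fmnl2 at 22.8, 47.9 and 37.5 CPM, both past 2-fold in S over G1. Fmn1 and Fmnl2 average 20 to 50 CPM, where 17.2% of all genes were at least 2-fold apart in S over G1. Spire2 stood at 18.5, 9.49 and 6.23 CPM, past 2-fold in G2/M over G1. It averages 10 to 20 CPM, where 38.0% of all genes were at least 2-fold apart in that comparison. Fhod3, under the limit, stood at 5.33, 6.31 and 12.9 CPM.

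**Figure D5:**
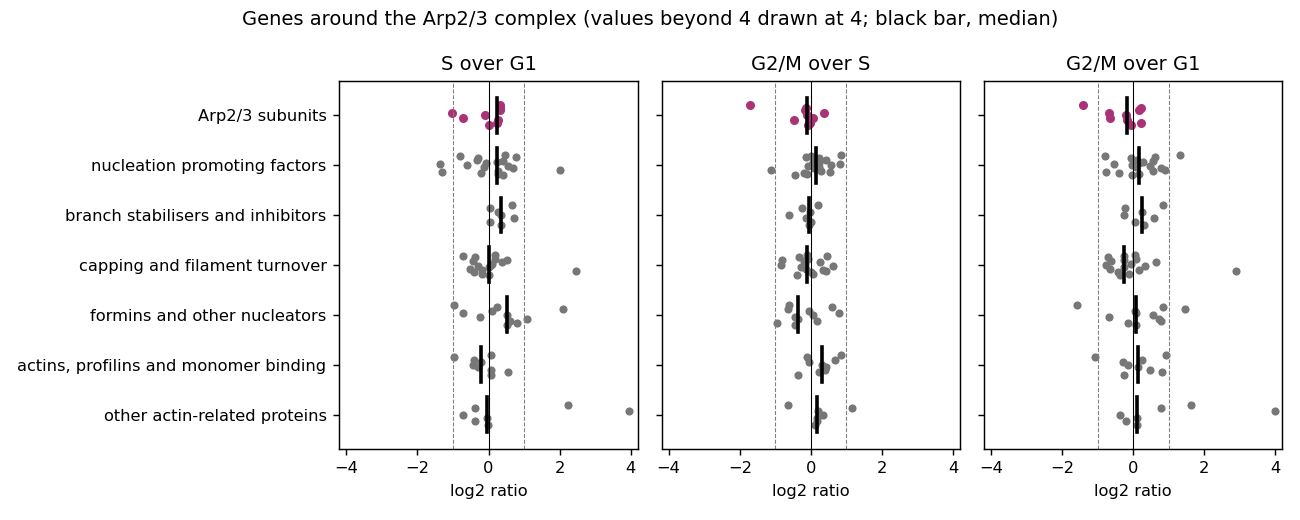
log2 ratios (horizontal axes; values beyond 4 drawn at 4) of the 9 subunits in purple and of members of 6 lists of related genes in grey, 1 dot per gene with a mean of at least 10 CPM, with each list's median as a black bar and 2-fold as dashed lines. The subunit medians are 0.23, -0.10 and -0.18 from the left panel to the right.

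Actins, profilins and monomer binding proteins, 9 of 12 over the limit, had medians of -0.22 in S over G1, 0.31 in G2/M over S and 0.14 in G2/M over G1, with 4, 6 and 5 higher. Actb, the substrate of the complex, stood at 4341.8 (G1), 4587.6 (S) and 3607.5 RPKM (G2/M), and Tmsb4x, the monomer-sequestering thymosin, at 866.1, 743.1 and 713.8 RPKM. Mrtfa, an actin-sensing cofactor of serum response factor, was the one past 2-fold among the 9, 2.11-fold lower in G2/M than in G1. It averages 20 to 50 CPM, where 10.5% of all genes were at least 2-fold lower in that comparison. Under the limit and chosen after its values were seen, the skeletal muscle actin Acta1 had 216, 5 and 336 fragments.

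Actin-related proteins outside the complex, 7 of 10 over the limit, had medians of -0.04, 0.18 and 0.12, with 2, 6 and 5 higher. The dynactin subunits Actr1a and Actr1b led this list; Actr1a stood at 69.3, 68.9 and 75.4 RPKM and Actr1b at 35.8, 27.7 and 31.4 RPKM. The chromatin remodeller subunits Actr5 and Actr8, the 2 higher in S over G1, were under 10 CPM in G1, with 32, 553 and 642 fragments for Actr5 and 218, 1160 and 759 for Actr8. Actr6, of a related remodeller, had 28.0 CPM in G2/M against 12.6 CPM in S, a 2.22-fold difference. Actr5 and Actr6 average 10 to 20 CPM. In that class 34.8% of all genes were at least 2-fold apart in S over G1 and 31.9% in G2/M over S.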

How the data were processed

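RNA-seq of sorted C2C12 fractions was deposited as raw counts of fragments per gene, which the authors counted per gene over exons from paired reads, using featureCounts 1.5.0-p3; the annotation was Ensembl GRCm38, as the header's command shows. HISAT2 2.1.0 and SAMtools 1.6 are named per the submitters' processing notes, without their settings. The 24 ChIP-seq samples were not analysed here. Symbols were matched for 45143 genes (98.0%).

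The columns of a fraction, numbered as replicates in the titles but L1 and L2 in the files, were compared by chi-square over genes with at least 10 fragments. It was 11297.1 over 11279 degrees of freedom in G1, 12090.1 over 11736 in S and 13006.9 over 11281 in G2/M, a ratio of 1.00, 1.03 and 1.15. The chi-square p over genes was 0.45 (G1), 0.0109 (S) and 3.11e-28 (G2/M). No subunit differed by more than 0.08 (log2) between columns. Thus the columns differed beyond sampling noise in G2/M and, by less, in S. They were summed in all 3 fractions because the excess was small and no label names separate cultures; how much of it is biological was not tested.

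Sums were scaled with TMM in edgeR 4.0.16 (R 4.3.3; factors 0.990, 1.00 and 1.01 for G1, S and G2/M) over 12971 genes with at least 10 fragments. Ratios used a floor of 3 fragments, and genes needed 10 CPM in 1 of the fractions compared. Intervals (SciPy 1.17.1) are exact binomial or Poisson; PCR copies are not independent molecules. The ratio code was tested on simulated data. DESeq2 1.42.0 size factors, library size alone, each column alone, no filter and a 1.5-fold limit were tried. Members, lists and settings were chosen with earlier results of these data known. Named genes are all members, the 2 highest per list by RPKM, list genes past 2-fold and the 5 nearest to Arpc5l. The results of 1 further list are not reported here.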

Additional observations from a re-analysis of the deposited data

How the results depend on the processing

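The log2 ratio of Arpc5l stayed between -1.74 and -1.69 in G2/M over S, between -1.41 and -1.37 in G2/M over G1 and between 0.28 and 0.35 in S over G1 under every scaling, filter and single column tried. Over 27 subunit ratios and 5 settings, 132 of 135 values stayed inside the main counting interval, none changed sign where the interval excluded 0, and the widest shift was 0.04; the other 3, all with library size alone, shifted by at most 0.03. Genes at least 2-fold apart numbered 1511, 1201 and 1756 in S over G1, G2/M over S and G2/M over G1. With no filter on low counts they were 4410, 4036 and 4519, and at 1.5-fold 3234, 2757 and 3521; both settings admit more genes by construction. Without division by length, the Arpc5l share was 31.9% (G1), 31.7% (S) and 13.4% (G2/M), and the Arpc1a share 20.3%, 33.7% and 26.0%, so their order over the fractions held. No paired analysis was possible because each fraction is 1 library and no result has a test; ratios within column 1 or column 2 alone are in the ranges above. With a limit of 10 CPM in either fraction compared, in place of the mean limit added after seeing the data, 5 of 10 branch genes were higher in G2/M over S and 8 of 10 in G2/M over G1, because 3 enter through G2/M; the formin medians became -0.05 and 0.33. With 1 library per fraction, variation between cultures is not measured, and at under 50 CPM many genes differ at least 2-fold.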
